A study of Mus musculus with 2 samples.

Results

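Very long splice junctions were examined in polyA RNA from mouse large intestine: gaps in spliced reads that span at least 100000 nt of the genome and carry at least 10 reads, chromosome Y left out. The rule took 1768 of the 446811 deposited junctions, or 1.35% of the 130634 that had at least 10 reads. The study holds 1 group of 2 libraries from adult C57BL/6J mice of 8 weeks, made from tissue of littermates with males and females pooled. Both libraries carry the same donor record, and the labels do not say how many animals were pooled in each. The gene rows summed to 48724618 expected counts in replicate 1 and 55655330 in replicate 2. The junction list gives each junction's reads as a sum of 2 numbers, called here the first and the second field, and no source used here links a field to a replicate. With 1 group there was no contrast between conditions to test, and every difference below is a description with counting error at most.

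An intron is cut from the transcript by the spliceosome, which joins the 3′ end of an upstream exon to the 5′ end of a downstream exon. The polymerase must cross the whole intron before its ends can be joined. A spliced read can also span a long stretch for other reasons. In B cells the V, D and J segments of an antibody gene are brought together in the DNA, and switching to another constant gene deletes DNA, while the genome reference keeps the unrearranged distances. Tandem gene families, such as the alpha-defensins of Paneth cells, hold near copies of the same exon at many positions, so that the 2 sides of a read can be placed on different copies.

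The members fell into classes by the genes at their ends. A junction was called annotated when its exact length was that of an annotated intron on the same chromosome and strand, which was so for 255 members (14.4%, Wilson 95% interval 12.9 to 16.1), against 95.1% of all junctions with at least 10 reads. No member had an annotated length on the opposite strand. A further 268 joined genes of 1 family, 17 joined an antibody J segment to a constant gene and 60 joined other named genes. Of the rest, 5 lay within 1 gene without being annotated, 186 had 1 end at a named splice site and 977 had none. Family was read from the letters that open a gene symbol, and single letters and common prefixes such as Tmem, Zfp and Slc were not used. Related genes, such as H2-D1 and H2-Q5, can therefore stand among the other named genes. The annotated members held 18380 of the 614344 member reads (2.99%), the family pairs 164220 (26.7%) and the J to constant joins 174706 (28.4%). By position, 264 members lay in the alpha-defensin cluster of chromosome 8 and held 306573 reads (49.9%). Reads were summed over members here, and a read listed under several members would be counted more than once. The antibody heavy chain (Igh) locus on chromosome 12 held 130 members and the kappa light chain (Igk) locus on chromosome 6 held 99.

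**Figure D1:**
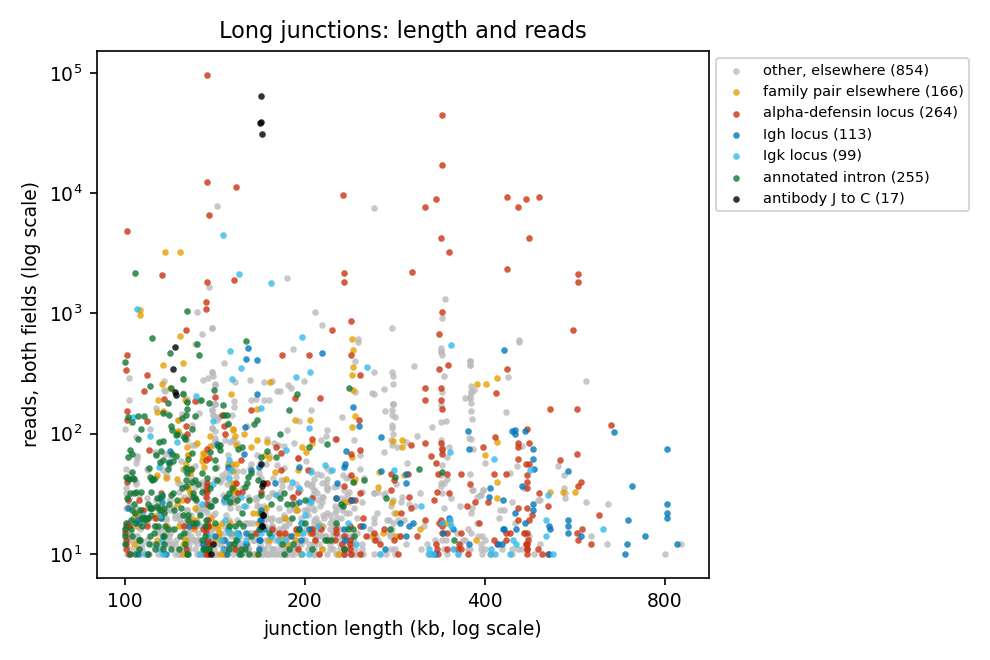
Each point is 1 of the 1768 members, with its length in kb on a log axis and its reads over both fields on a log axis, coloured by class or locus with the number of members in the key. Annotated introns reach 355383 nt and 2160 reads, while the defensin cluster and the J to constant joins hold the members with the most reads.

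For annotated members, the joints expected from the length match are printed, and no read sequence was examined. The lines give the last 20 nt of the upstream exon in lower case and the first 20 nt of the downstream exon in capitals, read from the annotated coding transcripts (GENCODE M21), for members chosen for their reads or length.
Gmds intron 1: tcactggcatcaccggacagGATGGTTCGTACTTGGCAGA
Gmds intron 7: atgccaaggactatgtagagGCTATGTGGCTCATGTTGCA
Msra intron 6: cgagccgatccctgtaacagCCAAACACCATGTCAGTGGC
Aig1 intron 3: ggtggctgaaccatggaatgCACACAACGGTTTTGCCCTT
Ext1 intron 1: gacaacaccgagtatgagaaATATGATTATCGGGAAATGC
Prkca intron 3: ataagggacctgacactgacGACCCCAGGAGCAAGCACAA
Magi1 intron 1: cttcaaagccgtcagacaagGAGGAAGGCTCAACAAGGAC
Lsamp intron 3: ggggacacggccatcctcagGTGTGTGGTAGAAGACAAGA

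In the antibody joins, the capitals mark the constant gene, Igha for the alpha chain of IgA and Ighg2b for a gamma chain of IgG. The 20 nt in lower case are the 3′ end of the J segment.
Ighj1 to Igha: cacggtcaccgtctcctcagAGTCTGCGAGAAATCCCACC
Ighj2 to Igha: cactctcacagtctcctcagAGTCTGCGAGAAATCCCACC
Ighj3 to Igha: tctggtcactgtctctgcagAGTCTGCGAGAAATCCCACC
Ighj4 to Igha: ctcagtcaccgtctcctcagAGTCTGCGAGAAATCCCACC
Ighj2 to Ighg2b: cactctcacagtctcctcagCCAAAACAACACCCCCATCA

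In the family pairs, the joint of each gene's own mature transcript was compared over 38 nt on either side. The capitals mark the letters that differ between the 2 genes named, and a line without capitals is the same in both.
Selenbp2, own joint: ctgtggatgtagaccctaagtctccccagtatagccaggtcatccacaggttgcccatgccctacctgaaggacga
Selenbp1, own joint: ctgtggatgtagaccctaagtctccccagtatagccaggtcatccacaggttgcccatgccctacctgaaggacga
Abcb1a, own joint: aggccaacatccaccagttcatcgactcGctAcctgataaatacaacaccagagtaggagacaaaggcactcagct
Abcb1b, own joint: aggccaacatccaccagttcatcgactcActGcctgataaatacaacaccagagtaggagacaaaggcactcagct
Defa21, own joint: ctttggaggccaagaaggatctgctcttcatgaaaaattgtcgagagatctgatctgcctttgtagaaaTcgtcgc
Defa22, own joint: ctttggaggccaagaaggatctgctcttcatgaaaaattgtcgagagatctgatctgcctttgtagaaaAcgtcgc
Krt17, own joint: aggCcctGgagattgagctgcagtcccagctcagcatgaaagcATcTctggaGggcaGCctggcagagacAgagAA
Krt19, own joint: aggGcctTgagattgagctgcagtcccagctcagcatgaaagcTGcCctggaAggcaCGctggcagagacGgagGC

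The members were chosen by length and by reads summed over both fields, so these distributions are given without a test. The median length was 171348 nt and the longest was 851542 nt, on chromosome 4 from 41774555 (5 reads in field 1 and 7 in field 2). Between 100000 and 200000 nt lay 1070 members, between 200000 and 500000 nt 642, and 56 were at 500000 nt or more. The median was 25 reads and the highest 96866. The threshold fell in a dense part of the list: 125 junctions of at least 100000 nt had exactly 10 reads and 138 had 9, out of 61922 with any reads. At the length threshold the longest junction just outside spanned 99766 nt with 52 reads and the shortest inside 100073 nt with 109 reads. Both lay on chromosome 3, in the stretch of Selenbp2 and BC021767, and of the 5 members just inside, 3 were annotated introns, of Chchd6, Bach2 and Babam2, at 100113, 100130 and 100196 nt.

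A smaller share of members than of all junctions had reads in both fields. This was so for 1505 of 1768 (85.1%), against 99.0% of all junctions with at least 10 reads. Reads in the second field only were found for 151 members, 112 of them in the alpha-defensin cluster, and reads in the first field only for 112. After scaling by the fields' totals, 903 members were at least 2-fold apart between the fields on the log2(reads + 1) scale, 392 higher in the second field and 511 in the first. That is 51.1% of the members against a background of 24.2% of all junctions with at least 10 reads (5.52% higher in the second field and 18.7% in the first), whose own median log2 ratio was -0.23. With the fields scaled to that median the members split the other way, 466 higher in the second field and 438 in the first (background 8.64% and 13.1%). Counting error is wide at 10 reads, but of the 312 members with at least 100 reads 119 were still 2-fold apart (38.1%, against 12.5% of all junctions at that depth). Of these 119, 56 were among 70 members of the alpha-defensin cluster, and outside the cluster and the antibody loci 42 of 203 were 2-fold apart (20.7%). A contig, meaning a stretch of covered genome in the deposited contig list, reached within 10 nt of both ends on the same strand for 1202 members (68.0%), against 98.3% of all junctions with at least 10 reads. By class it did so for 251 of 255 annotated members, 168 of 268 family pairs and 658 of 977 without a named site.

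**Figure D2:**
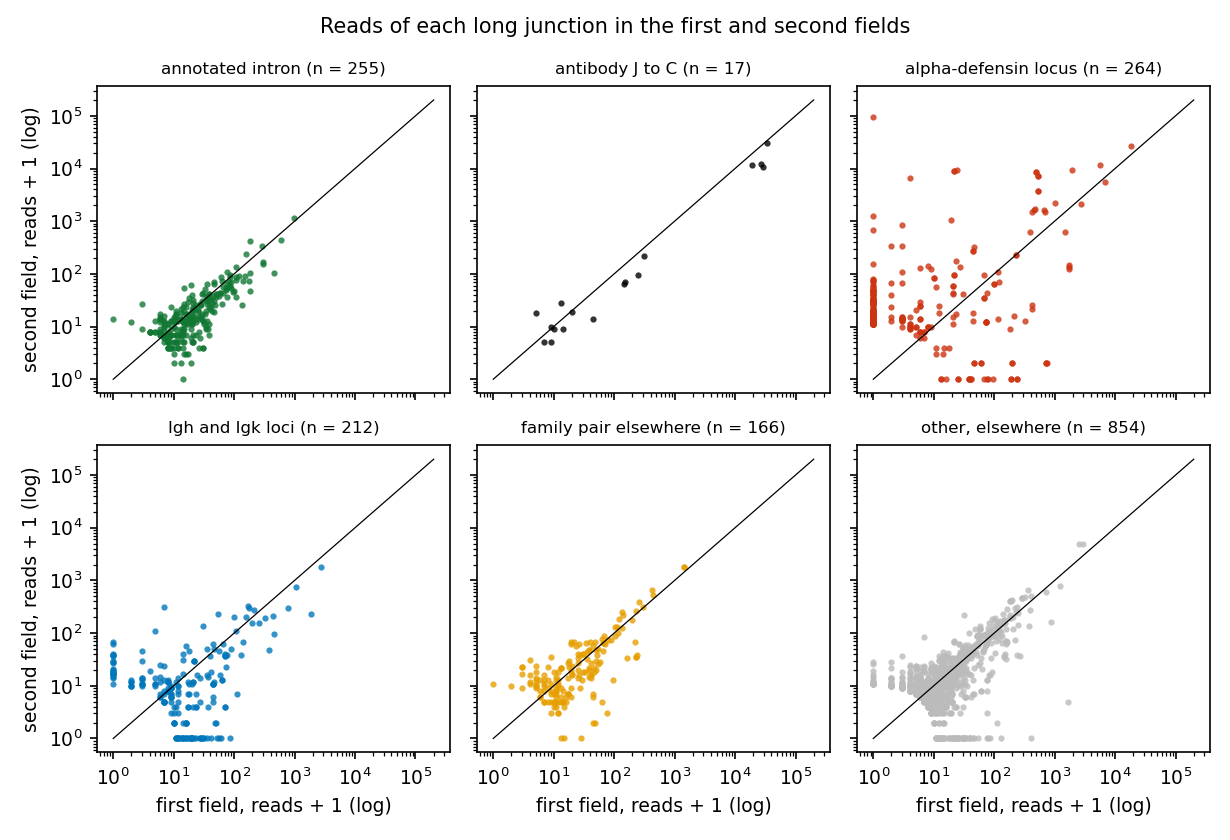
Reads + 1 of each member in the first field (x axis) and the second field (y axis), both on log axes, in 6 panels by class or locus with the number of members, the line marking equal reads. The 255 annotated members lie around the line, while 112 members of the defensin panel stand at 0 reads in the first field.

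Annotated long introns belonged to 223 genes, of which 221 were protein-coding. Their median length was 127161 nt, their median was 29 reads and 253 of 255 had reads in both fields. Gmds, which encodes the GDP-mannose dehydratase that starts GDP-fucose synthesis, held the member with the most reads. Its intron 1 of 10, on chromosome 13 from 32326267 to 32430250 (mm9, minus strand), spans 103984 nt and had 987 reads in field 1 and 1173 in field 2 (values of a member are given in this order from here on). Its intron 7, with 159754 nt from 32032472 to 32192225, had 180 and 415. The median of 8 shorter junctions of Gmds was 989.5 reads, so that intron 1 lay above it and intron 7 below. The gene itself stood at 211 and 228 TPM in replicates 1 and 2, an order kept for all TPM pairs.

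Msra, a methionine sulfoxide reductase, followed with 603 and 443 reads over 126954 nt of chromosome 14. Aig1 had 285 and 341 reads over 111208 nt of chromosome 10, against a median of 31 reads for 7 shorter junctions of the gene, a ratio of 20.2. The next were the cytoskeletal linker Epb41l3 with 452 and 104 reads, Ugt1a7c with 301 and 169, the Rac regulator Chn2 with 294 and 156, and Babam2 with 158 and 236. Epb41l3 and Chn2 were high in the first field, while Aig1 and Babam2 were within 1.5-fold between the fields. Mcu, the pore of the mitochondrial calcium uniporter, had 180 and 103 reads. The actin organiser Shroom3 had 175 and 72, and Ext1, a heparan sulfate polymerase, had 105 and 135 over 236830 nt.

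The longest annotated members named here had 13 to 51 reads, beside a median of 29 over all annotated members. Lsamp, a neuronal adhesion molecule, led with 355383 nt and 13 reads, 7 and 6 by field, at 0.26 and 0.44 TPM. Magi1, a scaffold of epithelial tight junctions, followed with 339689 nt and 38 and 10 reads, and Smyd3 with 310880 nt and 51 reads in all. After them came Cmss1 (283122 nt, 44 reads), Camkmt (277725 nt, 16 reads), the guidance ligand Slit3 (273314 nt, 29 reads) and Immp2l (251223 nt, 41 reads). No annotated member reached 500000 nt.

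Reads of a long junction tended to go with the level of its gene, with a Spearman rho of 0.588 over the 255 annotated members, which share 2 libraries and in 26 genes the same TPM. This is a description across junctions, which are not independent replicates. Against the median of the gene's own shorter junctions, 226 members could be compared and 82 had fewer reads, with a median ratio of 1.29 and a range from 0.0781 in Abr to 20.2 in Aig1. The median ratio was 1.25 for 101 first introns and 1.31 for 125 later ones. Having passed 10 reads, these members are a choice from the upper end, so neither the rho nor the ratio describes all long introns. The largest departure from the level of the gene was Ugt1a8, with 91 reads at 0.03 and 0.00 TPM. Ugt1a8 and Ugt1a7c belong to the Ugt1a complex, in which alternative first exons are spliced to shared later exons, and their values are therefore uncertain.

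**Figure D3:**
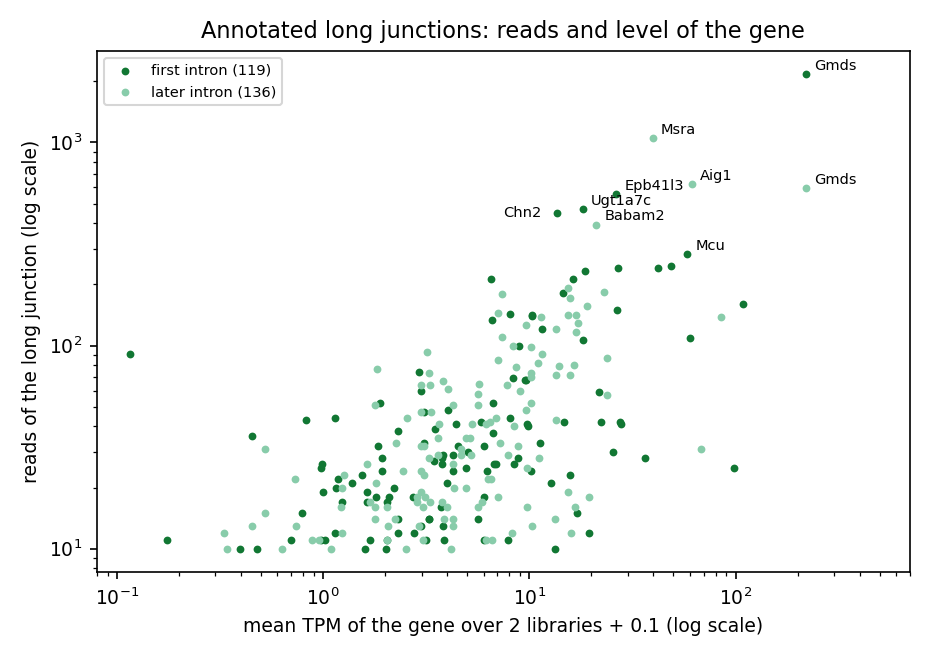
Each point is an annotated member, with the mean TPM of its gene over 2 libraries plus 0.1 on a log x axis and its reads on a log y axis, dark for 119 first introns and pale for 136 later ones. Gmds stands at the upper right, and the point at the far left with 91 reads is Ugt1a8.

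Long introns sat near the 5′ end of their genes. The first intron of the transcript made up 119 of the 255 (46.7%, Wilson 95% interval 40.6 to 52.8) and the second intron 54. Among named annotated junctions with at least 10 reads, the first intron made up 6.11% of 51437 under 1000 nt, 10.2% of 53429 from 1000 nt and 35.0% of 8024 from 10000 nt up to the threshold. The share of the members lay above that of each shorter group, and the intervals did not overlap. Of the 255, 220 interrupted the coding sequence and 32 the 5′ untranslated region. Intron numbers reached 27, in Dock1, in Dock2, which guides lymphocyte migration, and in Atrnl1. Among the 24 annotated members of 200000 nt or more, 7 were first introns (29.2%, interval 14.9 to 49.2), against 112 of 231 shorter ones (48.5%, interval 42.1 to 54.9), and the intervals overlap. The shorter junctions were named by the lengths of neighbouring introns and exons and the long ones by length alone, which could touch this comparison and was not tested.

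**Figure D4:**
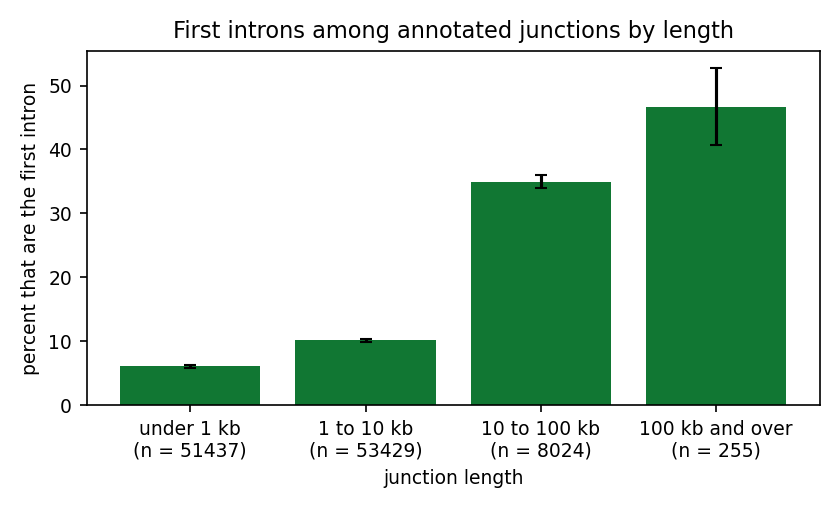
Bars give the percent of annotated junctions that are the first intron of their transcript (y axis, from 0) in 4 classes of junction length (x axis, n below each), with Wilson 95% intervals. The share is 6.11% under 1 kb and 46.7% at 100 kb and over.

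A long junction was seen more than once in 26 genes. Cdh13, an adhesion protein without a transmembrane part, had 5, in introns 1, 2, 5, 6 and 7, with 13, 64, 24, 47 and 32 reads. The intron 1 member had all 13 of its reads in the first field, while the other Cdh13 members had reads in both. Ptprn2 had 4 with 52 to 98 reads, and the muscarinic receptor Chrm3 had 3 with 11 to 16. The protein kinase Prkca had 142 reads in intron 2 and 192 in intron 3. Magi1 had a member with 48 reads over both fields and another with 61, and the polarity scaffold Pard3 had 87 in intron 2 and 57 in intron 22.

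By list, genes of epithelial polarity and epithelial regulation gave the most reads. Of 40 listed genes 14 had a long junction, with 19 junctions and 1453 reads. Prkca and Shroom3 are named above, Myo5b, a motor of apical trafficking, had 136 and 25 reads, and the receptor phosphatase Ptprk had 87 and 53. Matrix and growth factor signalling had 11 of 49 genes with 15 junctions and 599 reads, of which the growth hormone receptor Ghr gave 213. Smooth muscle and contractile genes had 8 of 28, with 11 junctions and 420 reads. There Lpp had 73 and 53 reads and the phosphodiesterase Pde3a had 45 and 29, while Dmd, which encodes dystrophin, had 8 and 3. Patterning and mesenchymal transcription factors had 10 of 52 genes and 320 reads, led by Nfia with 72, Arid1b with 60 and Nfib with 58. Lymphocyte and myeloid signalling had 7 of 34 and 277 reads, led by Dock2 with 93 and Elmo1 with 72. Neuronal adhesion and guidance had 5 of 46, namely Lsamp, Slit3, Plcb1, Negr1 and Ptprd, with 103 reads. Among genes of common fragile sites, Immp2l had 28 and 13 reads, Ccser1 19 and 13, Wwox 16 and 10, and Fhit 8 and 12. The lists also differ in expression: 35 of the 40 epithelial genes and 7 of the 46 neuronal genes reached 1 TPM in both libraries. Of all 12949 genes at that level, 192 had an annotated long junction. The lists were chosen with earlier results of these data known, so their counts and order depend on which genes were listed.

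Most host genes were expressed at moderate levels. At least 1 TPM in both libraries was reached by 192 of 223 (background 29.9% of all 43346 genes), and 18 were below 1 TPM in both. The medians were 5.44 TPM in replicate 1 and 4.41 in replicate 2, against 12.5 and 10.7 for all genes at 1 TPM in both. Since 10 junction reads require expression, this count follows from the rule. Between the libraries, 16 of 200 host genes with a mean of at least 1 TPM were 2-fold apart on the log2(TPM + 1) scale (background 5.64%), 13 higher in replicate 1 (background 4.46%) and 3 in replicate 2 (background 1.18%). The median log2(replicate 2/replicate 1) was -0.31 for hosts and -0.14 for all such genes. Egfr, the epidermal growth factor receptor, stood at 18.5 and 3.78 TPM, and its member of 106325 nt had 30 and 3 reads. The nuclear receptor Hnf4g stood at 92.9 and 27.1 TPM with 74 and 35 reads. Higher in replicate 2 were Gpc3 (2.28 and 6.04 TPM), Stxbp6 (3.82 and 9.0) and Me3 (2.08 and 5.22).

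Between the fields, 72 of the 255 annotated members were 2-fold higher in the first (background 18.7%) and 14 in the second (background 5.52%). Their median log2 ratio was -0.55, or -0.32 relative to the median of all junctions. With the fields scaled to that median the counts were 53 and 21, against backgrounds of 13.1% and 8.64%. The lowest ratios were those of Cdh13 (13 and 0 reads), Arhgap28 (18 and 1) and Egfr. The highest were those of Syn3 (0 and 13), Fbxl17 (2 and 26) and Bank1 (1 and 11). All 6 rest on fewer than 40 reads.

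In the heavy chain locus, reads joined every J segment to the alpha constant gene. The 4 joins to the first Igha exon end at chromosome 12 position 114498448 (mm9, minus strand) and span 168277 to 169544 nt. Ighj2 to Igha had 33190 and 30960 reads, and was the second-ranked member of all by reads. Ighj3 to Igha had 28754 and 10666, Ighj4 to Igha 26592 and 12061, and Ighj1 to Igha 19238 and 11716. All 4 were higher in the first field before scaling. Ighj2 made up 30.8% of the 4 in field 1 and 47.3% in field 2, whereas Ighj1 made up 17.9% in both. Igha stood at 17969 and 8967 TPM, and Jchain, the joining chain of secreted IgA, at 1479 and 778 TPM.

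The same J segments joined Ighg2b with 524 reads for Ighj2, 344 for Ighj4, 222 for Ighj3 and 209 for Ighj1. Ighj2 had the highest count for both constant genes, with 37.0% of the 173177 reads at Igha (Wilson 95% interval 36.8 to 37.3) and 40.3% of the 1299 at Ighg2b (37.7 to 43.0). These intervals cover counting error only, and cells of 1 clone share a join. Ighg2c had 12 reads with Ighj2 and 10 with Ighj4. The other 7 J to constant members, with 17 to 56 reads, ended at 2 later Igha exon edges, 303 and 639 nt into the annotated constant sequence.

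**Figure D5:**
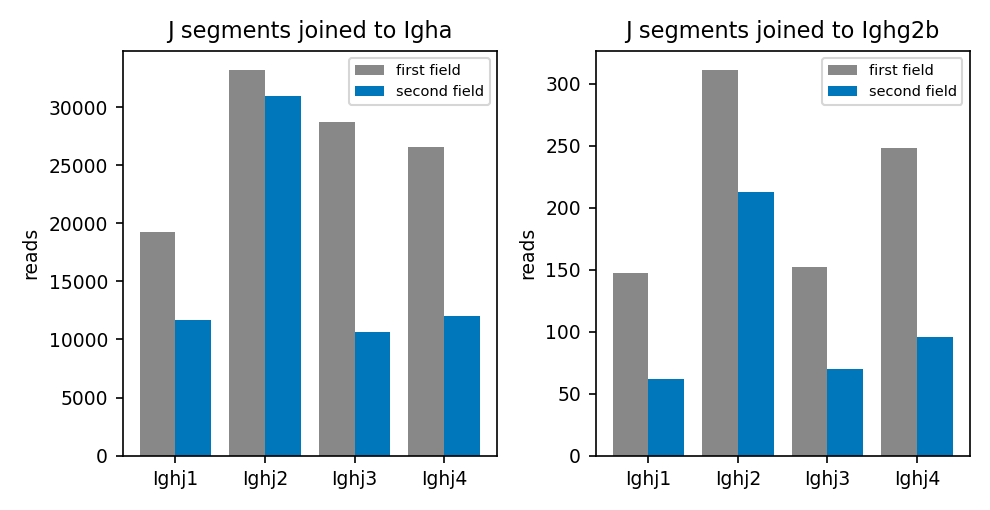
Bars give reads of field 1 (grey) and field 2 (blue) for joins of each J segment to Igha (left) and Ighg2b (right), on linear axes from 0 that differ between the panels. Ighj2 is the highest in both panels and fields, with 33190 and 30960 reads at Igha.

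Further members of the antibody loci ended inside a J segment instead of at its splice edge. In the Igh locus 27 did so with 1675 reads, of which Ighj4 took 1024 and Ighj2 511. In the Igk locus 21 did so with 1473 reads, of which Igkj2 took 966 and Igkj1 339. The name of each junction carries a flag C whose meaning is not given. It was 0 for 26 of these 27 and for all 21, against 1 for 96.6% of all junctions with at least 10 reads and for all 17 J to constant joins. Pairs of V genes gave 39 members in Igh with 2838 reads and 48 in Igk with 11287. Igkv6-15 to Igkv6-23 had 2716 and 1783 reads, beside 25954 and 2915 reads on the shorter junctions at its ends. Of the 10 longest members 8 lay in the Igh locus, with 12 to 75 reads and 694244 to 840182 nt. Several of these, of 805960 to 805963 nt, started within a few nt of 114720400 and may not be separate joins. Among them, 1 had 0 and 20 reads and another 26 and 0.

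The alpha-defensin cluster, from 22165254 to 22872734 on chromosome 8 (mm9), held 14.9% of the members. Defensins are antimicrobial peptides that Paneth cells of the small intestine secrete. Defa21 to Defa22 had no read in field 1 and 96866 in field 2, over 137286 nt. The shorter junctions at its left and right ends had 100095 and 95387 reads. Defa23 to Defa31 had 6906 and 5479 reads, though Defa31 is listed at 0 and 0.51 TPM. Defa30 to Defa3 had 1955 and 9335 reads. Unnamed members of 339710 nt from 22427294 and of 339712 nt from 22437290 had 18527 and 26646 reads and 5618 and 11707 reads. Most members of the cluster were high in the second field: 177 of 264 were 2-fold higher there (background 5.52%) and 52 in the first (background 18.7%). Reads in both fields were found for 134 (background 99.0%), and 81.2% of the summed reads (Wilson 95% interval 81.0 to 81.3) lay in the second field. Members with nearly equal values, such as 482 and 8739 reads beside 482 and 8737, may hold the same reads. The interval and these counts take no account of that.

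Within the cluster, 243 of the 264 members shared an end with another. The end at 22234932 was used by 5 members, with 9592, 8994, 8994, 1079 and 40 reads. Those with 8994 reads had equal values in each field, 21 and 8973. Of the 70 members there with at least 100 reads, 16 had both fields equal to another. Such members cannot be counted as separate observations. In the gene tables, 22 alpha-defensin genes summed to 17604 and 85241 TPM. Defa21 is listed at 0 in replicate 1 and at 9814 TPM in replicate 2, Defa22 at 15.1 and 8600, and Defa35, at 608 and 14.7, was lower in replicate 2. Defa35 to Defa5 had 1697 and 147 reads. Extreme field ratios were also found in the cluster: besides Defa21 to Defa22, a member from 22566190 had 3 and 6567 reads and another from 22166073 had 0 and 1251. In the other direction, 3 members from 22204793 had 733, 732 and 728 reads in field 1 and 1 each in field 2. Whether these differences came from the tissue sampled or from the placement of reads among near copies was not tested.

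Outside these loci, 166 members joined genes of 1 family, with 20329 reads, of which 162 had reads in both fields. Keratins had 12 with 9155 reads. Krt19, an epithelial keratin at 2022 and 2059 TPM, was joined to Krt42 (1454 and 1787 reads), Krt17 (1454 and 1784) and Krt16 (422 and 643). These partners stood at 0.02 to 1.65 TPM. The Krt42 and Krt17 joins share the Krt19 end at 100002482, and Krt81, Krt83 and Krt87 to Krt8 each had 12 and 21 reads. Such members may hold the same reads, so they are not separate observations and the family sums may count reads more than once. Selenbp2 to Selenbp1 had 10 members with 2414 reads, the highest at 301 and 318. Abcb1a to Abcb1b, which encode drug efflux pumps, had 8 with 1334 reads, the highest at 252 and 395, and the genes stood at 23.0 and 24.6 TPM for Abcb1a and 0.33 and 0.35 for Abcb1b. Naip genes, sensors of bacterial flagellin and secretion systems, had 31 members with 1282 reads. Srp54a to Srp54c had 12 with 756 reads and carboxylesterases of the Ces family 18 with 774. Selenbp, Abcb and Srp54 members lay close to equal between the fields. By 2-fold, 1 of 30 was higher in the first (background 18.7%) and 1 in the second (background 5.52%). Other families were uneven: both 2 Mgam members were 2-fold higher in the first field, and all 3 Plac9 members in the second. Of 11 Serpina members, 6 were higher in the second and 3 in the first.

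Cytochrome P450 members were also uneven between the fields. Of 29 Cyp members, with 2158 reads, 24 were 2-fold higher in the first field (background 18.7%) and none in the second. Scaled to the median of all junctions, 22 were higher in the first (background 13.1%) and none in the second. Cyp2d26 to Cyp2d22 had 224 and 68 reads. Cyp2d26 to Cyp2d34, Cyp2d10 and Cyp2d11 had 271, 261 and 261 reads in all, and these 3 ended at the same Cyp2d26 boundary. The joins to Cyp2d10 and Cyp2d11 had equal values in each field, 227 and 34. The 29 members are therefore not separate observations. Cyp2d26 stood at 131 and 24.7 TPM, Cyp3a11 at 16.1 and 0.72, and Cyp2b10 at 11.1 and 0.63. Cyp4f40, at an end of several members, was closer between the libraries, at 132 and 108 TPM.

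Letters on both sides of the joints were compared for 262 family pairs. Over 76 nt the 2 genes' own joints differed by a median of 4 letters, and 31 pairs did not differ at all, so that these letters alone cannot tell the genes' own joints from the long one. In 119 pairs at least 1 side of 38 nt was the same in both genes, and in 199 the closer side had at most 2 differences. Srp54a and Srp54c had a median of 0 differences over 12 members, Selenbp2 and Selenbp1 1 over 10, Abcb1a and Abcb1b 1 over 8, and the keratins 11 over 12. Alpha-defensin pairs had a median of 9 over 15, and 5 of these had an identical side. The median was 8 over 18 Ces pairs and 7 over 29 Cyp pairs. The printed Defa21 and Defa22 joints, 1 letter apart, are therefore closer than the median defensin pair. The printed Selenbp joints are of the identical kind, the Abcb1 joints differ by 2 letters, all on the upstream side, and the Krt17 and Krt19 joints by 11. At least 1 end of 267 of the 268 family pairs was also used by a shorter junction with at least 10 reads, and in 242 that junction had more reads than the long one. Among annotated members 226 of 255 had neither end in such a shorter junction. The shorter junctions were taken by position and not assigned to genes, so they need not be a gene's own intron. Whether the reads of the family pairs came from the genes' own shorter introns was not tested.

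Of the 60 pairs of other names, which include related genes that the family rule left out, 52 had more reads on a shorter junction at an end. They included Tmem181b-ps to Tmem181c-ps over 377741 to 384545 nt, the highest at 186 and 190 reads, the class I histocompatibility genes H2-D1 to H2-Q5 at 235 and 318, 6820431F20Rik to 2610005L07Rik at 879 and 159, and BC021767 to Cgn at 27 and 24. The 5 unannotated members within a gene lay in Gmds (2), Epb41l3, Mrps28 and Tbc1d22a, with 109 reads in all.

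The 789 members outside the 3 loci without 2 named ends held 66701 reads, and flag C was 0 for 483. Those with flag C at 0 seldom shared an end with a shorter junction: 408 of 483 had neither end in one with at least 10 reads. With flag C at 1 this was so for 40 of 306. It was also so for 226 of 255 annotated members, so the measure does not tell whether a boundary is known. The highest had 2936 and 4862 reads over 142718 nt of chromosome 12 from 34505011, and the next 2524 and 4981 over 261632 nt of chromosome 4 from 121870932. Neither end of either was used by a shorter junction. A member of 138128 nt on chromosome 16 from 40872903 had 1645 and 4 reads, and 1 of 242762 nt on chromosome 12 from 66728287 had 403 and 0. Taking all members outside the 3 loci that were not annotated, family and other pairs included, 418 stretches of overlapping members were formed. Of these, 296 held a single member, and the 42 with at least 5 held 517. The largest, on chromosome 17 from 6270591 to 6910242, held 63 with 9936 reads among copies of Tmem181 and Dynlt1, and another on chromosome 14, with Anxa11 and Plac9a, held 47 with 7903.

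The tissue label bears on the defensin members. Of 4 colonocyte markers only Slc26a3 reached 1 TPM in both libraries (43.5 and 21.0 TPM), while Car1 stood at 0.23 and 0.27, Aqp8 at 0.04 and 0.04 and Atp12a at 0.01 and 0.01. The 4 Paneth markers summed to 10004 and 17155 TPM. Among them Defa17 (216 and 368) and Defa24 (5012 and 9564) are alpha-defensins themselves, so the sum is not separate from the defensin members. The other Paneth markers were Lyz1 (4597 and 6826) and Mmp7 (178 and 396). The 4 small intestine enterocyte markers summed to 2004 and 5459. Of these enterocyte markers only Fabp6 was higher in replicate 2 (477 and 5279 TPM), while Apoa4 (1094 and 91.1), Sis (281 and 79.7) and Lct (152 and 9.94) were lower. These markers and the label disagree, and the samples are named here by label. The part of this in the differences between the fields was not tested.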

How the data were processed

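Stranded paired polyA libraries of RNA over 200 nt were made by the submitters, per the labels. The deposited junction list (mm9) gives counts of reads per junction in 2 fields and per-junction scores, and the deposited contig list gives covered stretches with a signal level that was not used. The gene tables deposited by the authors hold expected counts, TPM and FPKM per gene. Members and gene lists were chosen with earlier results of these data known. No mm9 annotation was used and no coordinate was converted: genes were named from GENCODE M21 (mm10) by exact intron length on the same chromosome and strand, by runs of intron, exon and intron lengths (160026 junctions of 14653 genes), and for pairs by the exact gap between exon edges of 2 genes of 1 family with at least 2 family junctions within 500000 nt. No family pair was found on the opposite strand. Field ratios are log2 of (second + 1)/(first + 1), scaled by 0.8932, the ratio of 20305017 to 22732327 reads. TPM ratios use a pseudocount of 1. Expected counts were rounded for edgeR 4.0.16 and DESeq2 1.42.0, which only gave scaling alternatives (R 4.3.3, Python 3.11.15, pandas 2.3.3). Wilson intervals (95%) cover counting error only, since reads without molecular identifiers are not independent molecules. The libraries were not copies: 65.4% of 17110 genes differed beyond counting error. Naming by intron and exon lengths and the ratio step were tested on simulated data, but the naming of family pairs and J to constant joins was not. The simulated introns came from GENCODE M21 and were moved by 1 offset per chromosome, so length changes between mm9 and mm10 were not covered. Named members are the longest, those with the most reads, those with the most extreme field ratios, those at the thresholds, pairs of genes, genes with several members and genes of the lists. No source used here names the aligner or junction caller, or defines the flags and scores.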

Additional observations from a re-analysis of the deposited data

How the results depend on the processing

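The number of members follows the thresholds: 3191 at 5 reads, 1030 at 20 reads, 3564 at 50000 nt and 698 at 200000 nt, and 1044 to 1056 when 10 reads were asked of 1 field alone. The share with reads in both fields was 87.7% at 20 reads, 80.5% at 200000 nt and 81.3% with 2 reads in each. The annotated share was 16.7% at 20 reads, 3.44% at 200000 nt and 16.8% with a read in each field. Members 2-fold apart between the fields were 486 of 1030 at 20 reads and 119 of 312 at 100 reads, the latter chosen after seeing the data, and 705 to 933 under the other scalings and pseudocounts. Scaling to the median ratio turned the split from 392 higher in the second field and 511 in the first to 466 and 438. Host genes 2-fold apart numbered 25 with a pseudocount of 0.1 TPM and 11 to 16 otherwise, and 190 to 210 host genes were detected in every setting tried. The share with a contig at both ends was 70.8% on either strand. No paired analysis was possible because there is 1 group of 2 libraries. Depth limits members near 10 reads, where 1 field can lack reads by counting alone.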
